A study of Arabidopsis thaliana with 9 samples.

Results

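The genes described here encode the bulk storage proteins of the Arabidopsis seed and the coat proteins of its oil bodies. They were 5 genes of 2S albumins (SESA1 AT4G27140, SESA2 AT4G27150, SESA3 AT4G27160, SESA4 AT4G27170 and SESA5 AT5G54740), 3 genes of 12S globulins, called cruciferins (CRA1 AT5G44120, CRB AT1G03880 and CRC AT4G28520), and 2 oleosin genes (OLE1 AT4G25140 and OLE2 AT5G40420). All 10 were on the array, which carried probes for 25665 loci, and each was read by 1 probe. The 10 genes were chosen by locus with measured values of these same arrays known (log2 signal and background flags at all 3 times), so their levels are a description and no test is given for them. The RefSeq gene table names CRB and CRC CRU2 and CRU3, and OLE1 and OLE2 OLEO1 and OLEO2.

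Storage albumins and cruciferins are made in the embryo during seed maturation, stored in protein storage vacuoles and used by the seedling as a source of nitrogen, sulfur and carbon. Oleosins coat the oil bodies that hold the seed's triacylglycerol and keep them from fusing. In Arabidopsis these genes are known targets of the seed maturation regulators LEC1, LEC2, FUS3 and ABI3, which work with bZIP factors and the hormone abscisic acid, and they are kept silent after germination by repressors that include VAL proteins, PICKLE and Polycomb complexes. A vegetative seedling is therefore not where their transcripts are usually found.

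The material was whole seedlings of Arabidopsis thaliana ecotype Col-0, 3 weeks old, germinated on agar and then shaken in liquid culture under continuous light. Silver nitrate, whose silver ions are toxic to plants, was added to the medium at 0.1 mM. Plants were taken at 0 h and after 48 h or 72 h, with 3 arrays for each time from separate experiments with different plants. Untreated plants of 48 h or 72 h were not analysed here, so silver and 48 h or 72 h more of culture cannot be told apart. Each array was a 1-colour Agilent array, spread over 4 slides. Slides 1 and 2 held the first and second replicates of all 3 times, slide 3 held the remaining arrays of 0 h and 48 h, and the last array of 72 h was alone on slide 4. Levels are given as the background-subtracted signal in percent of the 75th percentile of that array, and a level of 1 probe is not set against that of another. The sums over marker lists are an exception. They add probes of unlike brightness, so the brightest probe weighs most. On each array 65.4% to 68.3% of spots were well above background, and the dimmest probe well above background stood at 0.40% to 0.769% of the 75th percentile. The number of arrays limits the precision of every value.

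SESA5 differed most between the times among the 10 genes. It stood at 0.122%, 0.116% and 0.345% on the 3 arrays of 0 h, at 62.8%, 94.9% and 25.2% on those of 48 h and at 1.36%, 5.92% and 14.0% on those of 72 h. No array of 0 h was well above background, all arrays of 48 h and 72 h were, and the 3 times did not overlap, with 72 h between the other times. The mean was 61.0% ± 34.9 at 48 h, against 0.194% ± 0.130 at 0 h (SD, n = 3 each). Because 0 h gave only a bound, SESA5 was at least 88.0-fold higher at 48 h than at 0 h and at least 7.99-fold higher at 72 h than at 0 h. The bound sets the mean of the later arrays, on the log2 scale, against the dimmest probe well above background on each array of 0 h, or against the probe's own value where that is higher. That level is not a strict limit of detection. On replicate 3 of 0 h it was 0.769%, and CRB at 0.916% was not well above background there. Each "at least" in the text holds against that level only. The measured log2 differences were 8.29 at 48 h and 4.83 at 72 h. SESA5 was lower at 72 h than at 48 h, with a log2 difference of -3.46.

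SESA2 had the same order of times. It stood at 0.133%, 1.03% and 0.788% at 0 h, where 1 array was well above background, at 33.4%, 54.7% and 18.9% at 48 h and at 2.68%, 2.88% and 19.1% at 72 h. Every array of 48 h and of 72 h was above every array of 0 h. The arrays of 48 h and 72 h overlapped, because replicate 3 of 72 h, the array on slide 4, was as high as replicate 3 of 48 h. The log2 difference from 0 h was 6.09 at 48 h and 3.47 at 72 h, and that of 72 h from 48 h was -2.62. The level of 0 h behind the first values was measured on 1 array alone, so they are differences of the signals as read. Without replicate 3 of 72 h the difference from 0 h at 72 h was 2.54, and without slides 3 and 4 it was 2.91.

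SESA1 was also higher at 48 h. It stood at 0.129%, 0.401% and 0.733% at 0 h, none of them well above background, at 1.55%, 6.04% and 1.49% at 48 h, all well above background, and at 0.585%, 1.54% and 0.656% at 72 h, where replicates 2 and 3 were well above background. The arrays of 48 h lay above those of 0 h, while those of 72 h overlapped with both other times. SESA1 was at least 3.98-fold higher at 48 h than at 0 h. The measured log2 differences from 0 h were 2.84 at 48 h and 1.32 at 72 h, the second between times that overlap and that both hold arrays not well above background.

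Within slides, all 3 genes were higher at 48 h than at 0 h. The log2 difference of same-numbered arrays was 9.01, 9.67 and 6.19 for SESA5 on slides 1, 2 and 3. It was 7.97, 5.73 and 4.58 for SESA2 and 3.59, 3.91 and 1.02 for SESA1. These are differences of signals as read, since of the 0 h values only replicate 2 of SESA2 was well above background. The difference was smallest on slide 3 for each of them. The arrays of slide 3 were the dimmest, with 75th percentiles of 1612 and 1997 against 2808 to 3732 on the others. The part of that in the smaller differences was not tested. At 72 h, where replicate 3 was on another slide than its 0 h array, the differences were 3.47, 5.67 and 5.34 for SESA5, 4.33, 1.48 and 4.60 for SESA2, and 2.18, 1.94 and -0.16 for SESA1. The pair of replicate 3 of SESA1 was thus the exception among these values. At 72 h against 48 h, SESA5 differed by -5.53, -4.00 and -0.85, SESA2 by -3.64, -4.25 and 0.02, and SESA1 by -1.41, -1.97 and -1.18. Replicate 3 of 72 h was the lone array of slide 4, and its part in these values was not tested.

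**Figure D1:**
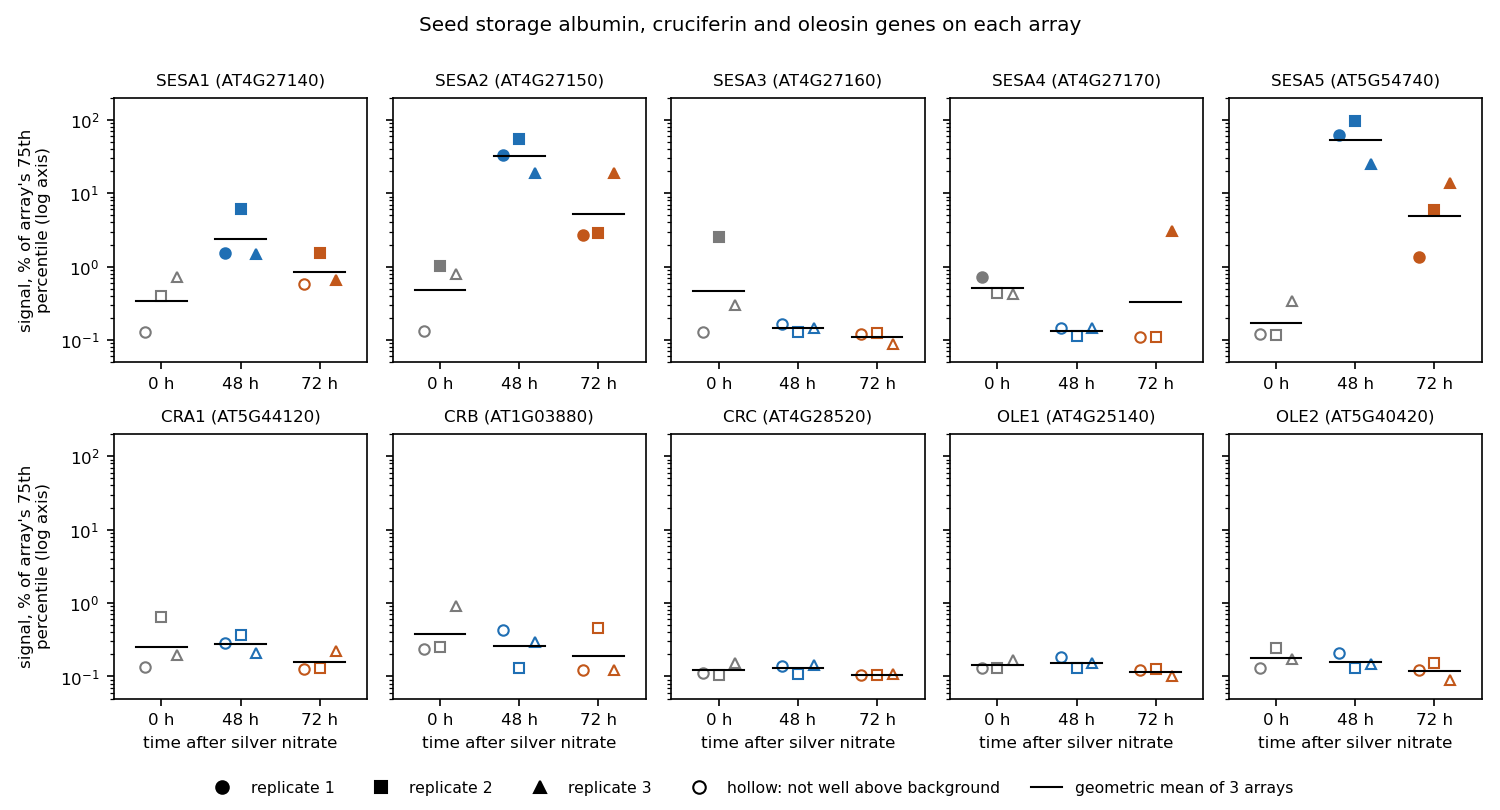
Signal of the 10 genes on each array, in percent of the array's 75th percentile on a log axis, against time after silver nitrate (0 h, 48 h and 72 h). Shapes are replicates, hollow points are not well above background and bars are geometric means of 3 arrays. SESA5 reached 25.2% to 94.9% at 48 h, SESA2 18.9% to 54.7% and SESA1 1.49% to 6.04%, while the cruciferins and oleosins stayed hollow throughout.

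The other albumins did not follow. SESA3 stood at 0.128%, 2.53% and 0.300% at 0 h, where replicate 2 alone was well above background, at 0.163%, 0.127% and 0.147% at 48 h and at 0.120%, 0.126% and 0.0891% at 72 h. None of its later arrays was well above background. SESA4 stood at 0.721%, 0.441% and 0.429% at 0 h, at 0.146%, 0.113% and 0.144% at 48 h and at 0.108%, 0.109% and 3.09% at 72 h. It was well above background on replicate 1 of 0 h and on replicate 3 of 72 h, which was also the array where SESA2 was highest at that time. Each signal of SESA3 and SESA4 above background thus rests on 1 array of a time.

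The 3 cruciferins and both oleosins were well above background on no array. CRA1 stood at 0.135%, 0.644% and 0.193% at 0 h, at 0.284%, 0.365% and 0.210% at 48 h and at 0.127%, 0.132% and 0.224% at 72 h. Over the 5 genes and 9 arrays the values ran between 0.0886% and 0.916%, the highest being CRB on replicate 3 of 0 h. They have only an upper bound, near the dimmest level that counted as well above background, so a change within that range was not detectable. Per array, 1, 2 and 0 of the 10 genes were well above background at 0 h, 3 on each array of 48 h, and 2, 3 and 4 at 72 h. At 48 h the genes with a measured level were SESA1, SESA2 and SESA5 on every array.

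Over all 10 genes the median log2 difference was 0.11 at 48 h and -0.43 at 72 h against 0 h, and the median of all 21042 tested genes was 0.02 and 0.01. The medians of the 10 mostly describe probes near background. A gene entered the test if all 3 arrays of some time read its probe as well above background, and 3 of the 10 genes, SESA1, SESA2 and SESA5, passed. They passed through the later times, where they were high (SESA1 through 48 h, SESA2 and SESA5 through both), so their passing says nothing more about a difference from 0 h. Over all tested genes 14.2% were called higher at 48 h and 16.9% at 72 h (limma, adjusted p under 0.05), and nothing is read from that for genes chosen on this contrast. Background correction by normexp with an offset of 50, which compresses dim signals, moved these values by more than 1.5 times. It gave 3.83, 2.96 and 0.28 at 48 h, and 0.97, 0.84 and -0.56 at 72 h, for SESA5, SESA2 and SESA1 on the log2 scale. The other 16 settings, arrays left out included, kept each of them higher, with 7.87 to 9.34 for SESA5, 5.17 to 6.85 for SESA2 and 2.15 to 3.75 for SESA1 at 48 h. At 72 h these ranges were 4.05 to 5.74, 2.53 to 4.03 and 0.63 to 2.06 in the same order.

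SESA1 to SESA4 lie next to each other in the genome, as a run of 4 genes in the RefSeq table, and SESA5 lies on another chromosome. SESA2 was high at 48 h while SESA3 and SESA4 of the same run were not above background. The albumin genes are close relatives, and whether a probe also binds the transcript of another of them could not be checked, since probe sequences were not used here. Of the 6 nearest protein-coding neighbours of the run on the array, 3 were tested and none was called at either time, by limma at an adjusted p under 0.05. Their log2 differences were between -0.24 and 0.39. Of the 6 nearest neighbours of SESA5, 5 were tested. AT5G54720 and AT5G54710, on its one side, were lower at both times, with log2 differences of -2.77 and -1.0 at 48 h and -3.0 and -1.37 at 72 h (limma adjusted p of 0.000147 and 0.00826 at 48 h, 7.46e-05 and 0.00137 at 72 h). The other 3, G18F among them, were not called. No tested neighbour of either locus was called higher. Over all 21042 tested genes 14.2% were called higher and 15.8% lower at 48 h, and 16.9% higher and 19.4% lower at 72 h. With so few neighbours, nothing is read from these counts.

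SESA1, SESA2 and SESA5 were each set against the mean of the others over the 9 arrays. The Pearson correlation of each with the mean of the other members that passed was 0.950 for SESA2, 0.949 for SESA5 and 0.850 for SESA1, on centred log2 values. This is a description, since the arrays share the 3 times and the slides. The genes were chosen with their values known and passed the filter through times where they were high. High correlations follow in part from that choice, and most of their 0 h values were not well above background. Of 21017 other genes, 184 correlated with the mean profile of the 3 albumin genes at over 0.9. The 10 with a symbol that ranked highest were CDI, WRKY70, AT5MAT, RGF9, GSTU19, MYB72, MIOX1, ZIP7, LDOX and WAK1, with correlations between 0.986 and 0.952. AT5MAT, an anthocyanin malonyltransferase gene, stood at 0.637%, 0.824% and 2.05% at 0 h, at 12.2%, 24.4% and 14.7% at 48 h and at 2.71%, 10.3% and 6.66% at 72 h. LDOX, which encodes an enzyme of anthocyanin synthesis, stood at 2.39%, 3.27% and 6.53%, at 39.3%, 85.7% and 37.7% and at 8.20%, 46.3% and 21.2% at the same times. MYB72, a transcription factor gene of the root's iron deficiency response, was not above background at 0 h (0.125%, 0.122% and 0.171%) and reached 2.74%, 2.95% and 2.1% at 48 h and 0.622%, 0.892% and 2.70% at 72 h. All 3 had their highest mean at 48 h, as the ranking asked.

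The genes around this family in seed biology were taken from 10 lists with 135 genes, chosen with earlier results of these data known. Of 106 tested genes, 23 were higher and 6 lower at 48 h against 0 h, and 24 were higher and 10 lower at 72 h (limma, adjusted p under 0.05). Over all 21042 tested genes, 14.2% were called higher and 15.8% lower at 48 h, and 16.9% were called higher and 19.4% lower at 72 h. These shares are the background for the count of each single list and marker list below. Those lists are short and were not tested against it. The median log2 difference of the tested list genes was 0.15 at 48 h and 0.16 at 72 h, against 0.02 and 0.01 over all genes. With any 1 library left out, 16 to 27 genes were called higher at 48 h and 19 to 28 at 72 h. Without slides 3 and 4, which leaves 2 arrays a time, 14 were higher and 6 lower at 48 h, and 12 were higher and 7 lower at 72 h. Between 72 h and 48 h no gene was called, on the lists or among all 21042 genes (0% of them), where 1929 had an unadjusted p under 0.05 and other settings called 0 to 7.

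**Figure D2:**
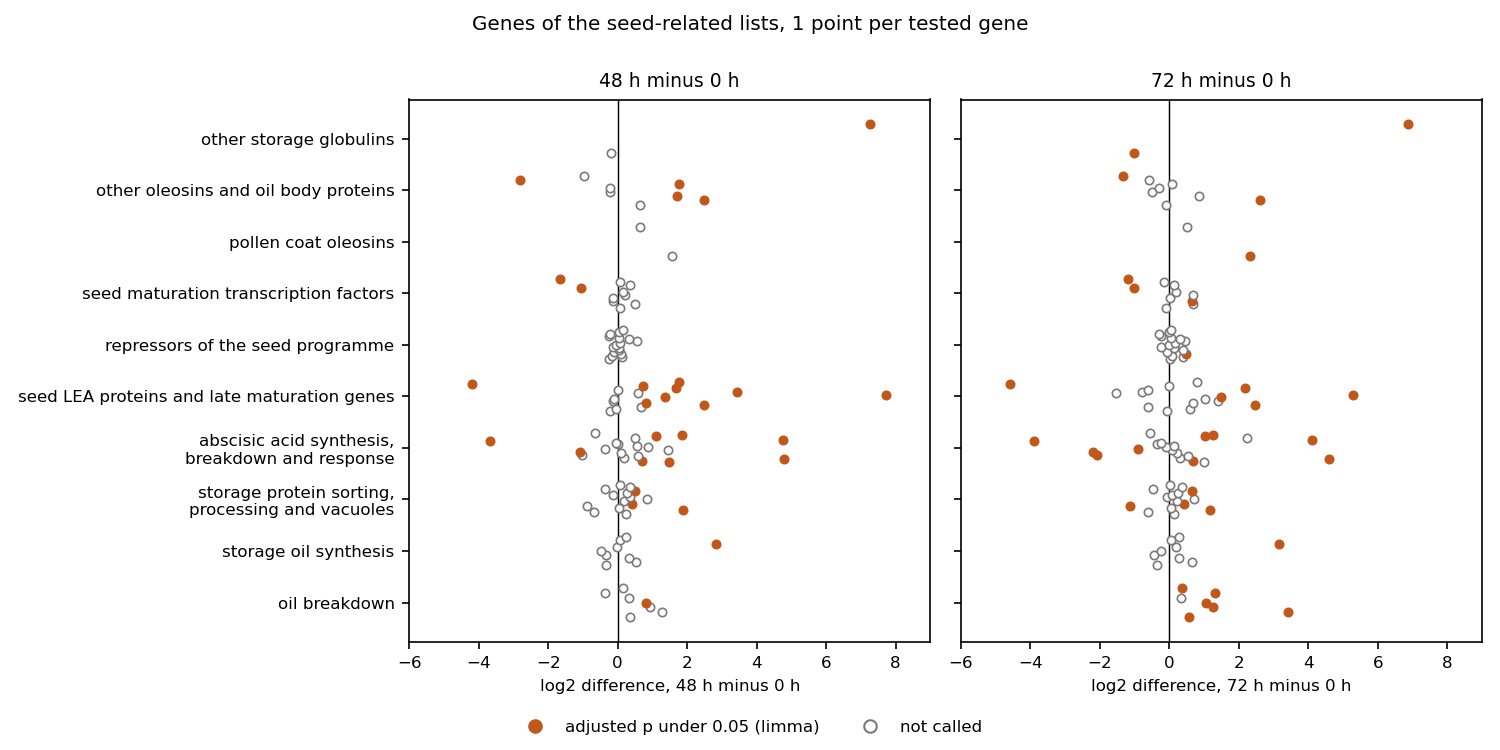
Log2 difference from 0 h of each tested gene of the 10 seed-related lists at 48 h (left) and 72 h (right), 1 point per gene and lists down the page. Filled points have an adjusted p under 0.05. At 72 h, 6 of 7 genes of oil breakdown were called higher, and of the 17 repressors 1 was called. Of all 21042 tested genes, 16.9% were called higher and 19.4% lower at 72 h.

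Among the other storage globulins, 2 of 5 genes were tested. AT4G36700, a locus with no symbol in the RefSeq table, rose at both times. It stood at 4.02%, 12.0% and 4.5% at 0 h, at 906%, 1326% and 645% at 48 h and at 623%, 547% and 995% at 72 h, so that all later arrays lay far above 0 h. The log2 difference was 7.26 ± 0.45 (SE) at 48 h and 6.86 ± 0.45 (SE) at 72 h (adjusted p of 4.35e-05 and 3.77e-05). Its arrays of 48 h and 72 h overlapped, as did those of SESA1 and SESA2 but not those of SESA5. AT2G18540 of the same list was lower at 72 h (log2 difference -1.01, adjusted p of 0.0324). That call ended without replicate 2 or 3 of 0 h or of 72 h, at an adjusted p of 0.0506 to 0.103. AT1G03890, of the same list, was at or under 0.515% on all arrays, and was well above background on 1 array of 72 h alone.

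Among 14 genes of other oleosins and oil body proteins, 8 were tested, of which 3 were higher and 1 lower at 48 h, and 1 was higher and 1 lower at 72 h. RD20, also called CLO3, a caleosin gene known for its response to drought and abscisic acid in leaves, stood at 109%, 138% and 47.0% at 0 h, at 276%, 860.4% and 535% at 48 h and at 352%, 1103% and 427% at 72 h. It rose by 2.50 ± 0.58 (SE) at 48 h and by 2.63 ± 0.58 (SE) at 72 h on the log2 scale (adjusted p of 0.0125 and 0.0082), and every later array lay above 0 h. The seed caleosin genes CLO1 and CLO2 were well above background on no array. OLEO4, a seed oleosin gene, stood at 1.78%, 2.41% and 3.70% at 0 h, at 11.7%, 5.95% and 8.88% at 48 h and at 1.58%, 4.58% and 2.56% at 72 h. It rose at 48 h by 1.76 ± 0.43 (SE) (adjusted p of 0.015), was not called at 72 h, and the call at 48 h ended without replicate 1 of 48 h (adjusted p of 0.0526). OLEO3 was lower at 72 h (log2 difference -1.34, adjusted p of 0.012), and was called at 48 h without replicate 2 of 0 h or replicate 3 of 72 h (0.0348 to 0.0442) and under 5 other settings, with median or quantile scaling, normexp, slide as a term or a stricter filter (0.0248 to 0.050). AT2G47780, a locus of the same list with no RefSeq symbol, had a log2 difference of 1.72 ± 0.56 (SE) at 48 h (adjusted p of 0.0484). That call was lost without replicate 1 or 2 of 0 h, any replicate of 48 h, or replicate 2 or 3 of 72 h, at an adjusted p of 0.0567 to 0.143. HSD1, a steroleosin gene, had no array of 48 h well above background and was at least 5.11-fold lower there than at 0 h. The log2 difference of its signals as read was -2.80 ± 0.78 (SE) (adjusted p of 0.0274). That call was lost without replicate 2 or 3 of 0 h or any replicate of 48 h, at an adjusted p of 0.0504 to 0.0877. The direction at 72 h was not called for HSD1, but was without replicate 1 of 72 h (adjusted p of 0.00838).

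The pollen coat oleosins are relatives that act in the tapetum and on pollen grains. Of 6 genes 2 were tested, and GRP19 was higher at 72 h, by 2.34 ± 0.74 (SE) on the log2 scale (adjusted p of 0.0364). It stood at 6.90%, 5.88% and 2.28% at 0 h, at 6.13%, 12.0% and 32.5% at 48 h and at 54.2%, 16.8% and 13.1% at 72 h. The call ended without replicate 2 or 3 of 0 h, replicate 2 of 48 h or replicate 1 or 2 of 72 h, at an adjusted p of 0.0537 to 0.115.

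The master regulators of seed maturation gave little signal at any time. Of 17 transcription factor genes 10 were tested, of which 2 were lower at 48 h, and 1 was higher and 2 lower at 72 h. ABI3, a B3 factor that switches on storage genes, stood at 0.220%, 0.633% and 0.556% at 0 h, at 0.156%, 0.314% and 0.569% at 48 h and at 0.114%, 0.149% and 0.172% at 72 h, with 1 array of 0 h well above background. FUS3, also a B3 factor, was above background on no array of 0 h and stood at 0.129%, 0.162% and 0.436% there, at 0.729%, 0.751% and 0.907% at 48 h and at 0.673%, 0.638% and 0.454% at 72 h. With 2 arrays well above background at each later time it did not pass the filter. As read, all 48 h and 72 h arrays lay above those of 0 h, and FUS3 was at least 1.31-fold higher at 48 h. At 72 h no such bound was reached. The separation there rests on replicate 3, at 0.454% against 0.436% at 0 h, neither well above background. LEC2 stood at 1.07%, 2.99% and 0.488% at 0 h and was well above background on 1 array of 48 h and none of 72 h. LEC1, a NF-Y subunit, stood between 0.569% and 0.963% on all arrays and was not called (log2 difference 0.06 ± 0.21 (SE) at 48 h, adjusted p of 0.87). Its relative NF-YB6, also called L1L, fell, with log2 differences of -1.65 ± 0.22 (SE) at 48 h and -1.19 ± 0.22 (SE) at 72 h (adjusted p of 0.00093 and 0.0034), with 1 and 3 arrays well above background at those times.

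The bZIP factors that pair with ABI3 on storage gene promoters were measured well. BZIP53 stood at 2888%, 3184% and 3478% at 0 h, at 1621%, 1578% and 1408% at 48 h and at 1576%, 1572% and 1531% at 72 h. It fell, with log2 differences of -1.05 ± 0.12 (SE) and -1.02 ± 0.12 (SE) (adjusted p of 0.00044 and 0.00035), and no later array reached the level of 0 h. Its partners BZIP10 and BZIP25 were not called, with log2 differences of 0.36 ± 0.14 (SE) and 0.22 ± 0.29 (SE) at 48 h and 0.13 ± 0.14 (SE) and 0.69 ± 0.29 (SE) at 72 h. BZIP25 at 72 h was called without replicate 1 of 0 h (adjusted p of 0.0436) and in the deposited value table (0.0458). EEL, a bZIP factor of late embryogenesis, was not called at 48 h and rose by 0.65 ± 0.17 (SE) at 72 h (adjusted p of 0.017). That call ended without replicate 2 or 3 of 0 h or replicate 1 of 72 h, at an adjusted p of 0.0502 to 0.0595. ABI5, which acts in abscisic acid signalling of seeds and young seedlings, had log2 differences of 0.49 ± 0.25 (SE) and 0.69 ± 0.25 (SE) and was called at 72 h without replicate 2 of 72 h (adjusted p of 0.0069) and in the deposited value table (0.0202). AREB3, WRI1, the regulator of oil synthesis, and AGL15 were not called, with log2 differences between -0.16 and 0.20. ABI4, MYB118 and MYB115 were well above background on no array and BZIP67 on 1 array of 0 h.

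**Figure D3:**
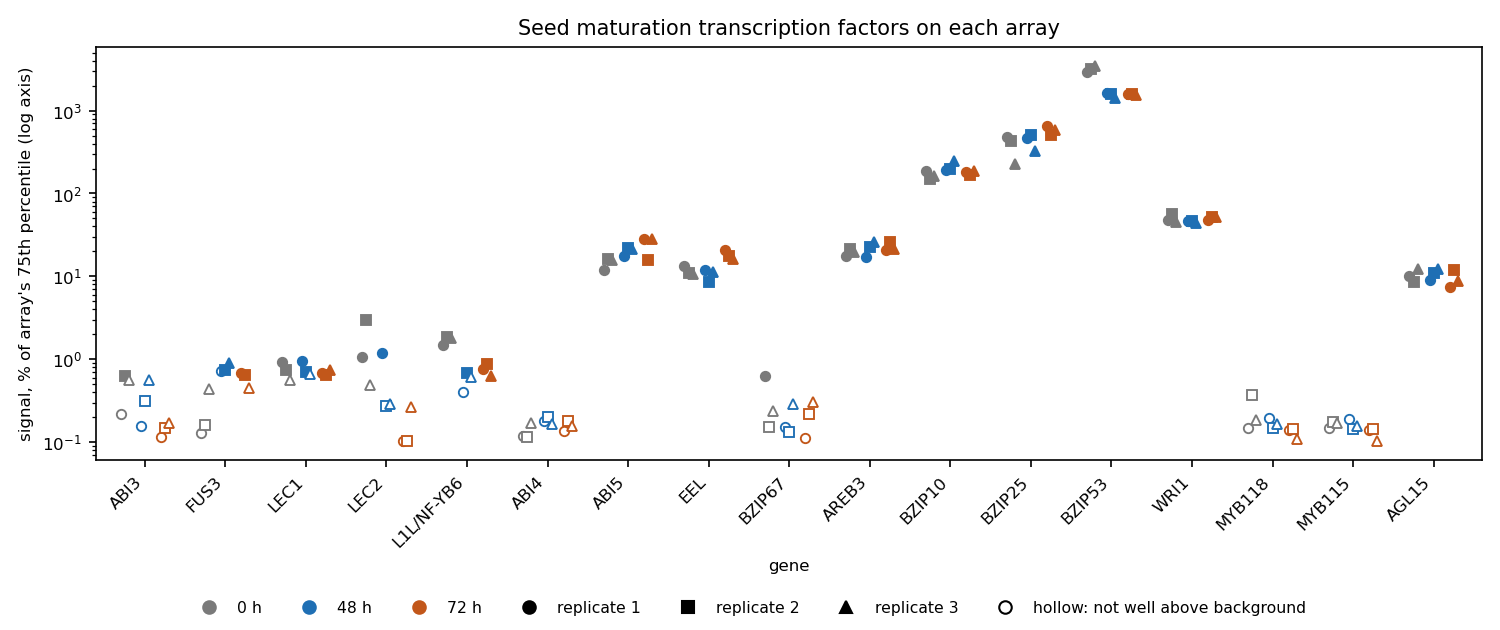
Signal of the 17 seed maturation transcription factor genes on each array, in percent of the array's 75th percentile on a log axis. Colours are times, shapes are replicates and hollow points are not well above background. BZIP53 is lower at 48 h and 72 h, and ABI4, MYB118 and MYB115 are hollow on all 9 arrays.

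Repressors of the seed programme were all measured. Of 17 genes, all tested, none was called at 48 h and CLF alone was called at 72 h. In the deposited value table, whose median gene lay 0.15 and 0.23 higher on the log2 scale at these times, 1 was called higher at 48 h and 5 at 72 h. At 48 h the log2 differences ran from -0.26 to 0.57, and at 72 h from -0.28 to 0.47. CLF, a Polycomb histone methyltransferase, was higher at 72 h by 0.47 ± 0.12 (SE) (adjusted p of 0.0135), a call that ended without replicate 2 or 3 of 72 h at an adjusted p of 0.051 to 0.0525. VAL3 was called at 48 h without replicate 1 of 0 h (adjusted p of 0.0327) and with slide as a term (0.0332), with a log2 difference of 0.57 ± 0.23 (SE) over all arrays. The B3 repressors VAL1 and VAL2 and the chromatin remodeller PKL were not called at either time.

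Genes of late embryogenesis abundant (LEA) proteins, which protect cells as they dry, and other late maturation genes made up 1 list. Of 22 genes 16 were tested, of which 8 were higher and 1 lower at 48 h, and 4 were higher and 1 lower at 72 h. With any 1 library left out, 4 to 8 were higher at 48 h and 4 to 5 at 72 h. Under normexp 3 were higher and 1 lower at 48 h, and 2 were higher and 2 lower at 72 h. AT3G02480, a locus with no RefSeq symbol, stood at 0.841%, 2.34% and 3.57% at 0 h, at 322%, 621% and 324% at 48 h and at 28.9%, 103% and 139% at 72 h. It rose by 7.71 ± 0.68 (SE) at 48 h and by 5.28 ± 0.68 (SE) at 72 h on the log2 scale (adjusted p of 0.00016 and 0.00057). As with SESA5, the 3 times did not overlap and 72 h lay in between. ECP63 rose by 2.48 ± 0.38 (SE) and 2.46 ± 0.38 (SE) (adjusted p of 0.0017 and 0.0013), and AT3G53040, also without a symbol, by 1.67 ± 0.37 (SE) and 2.19 ± 0.37 (SE) (adjusted p of 0.0093 and 0.0021). AT3G17520 passed the filter only through 48 h, where it was high, so its passing says nothing more about a difference from 0 h. Replicate 2 of 0 h and replicates 1 and 2 of 72 h were not well above background. The log2 difference of its signals as read was 3.44 ± 0.84 (SE) at 48 h (limma adjusted p of 0.0154). That call ended without replicate 2 of 0 h or replicate 1 of 48 h at an adjusted p of 0.0532 to 0.0567. With slide as a term AT3G17520 was called lower at 72 h (0.0248), where its level was measured on replicate 3 alone. DOG1, the main control gene of seed dormancy, fell. It stood at 16.2%, 24.0% and 23.0% at 0 h, at 1.16%, 0.721% and 1.77% at 48 h and at 0.820%, 0.694% and 1.11% at 72 h, a log2 difference of -4.18 ± 0.33 (SE) and -4.59 ± 0.33 (SE) (adjusted p of 0.00010 and 5.02e-05). The seed genes PER1 and ECP31 were well above background on no array.

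Abscisic acid is the hormone that drives storage gene transcription in seeds and stress responses in leaves. Of 21 genes of its synthesis, breakdown and response, 20 were tested, of which 6 were higher and 2 lower at 48 h, and 5 were higher and 4 lower at 72 h. NCED5, a gene of a carotenoid cleavage enzyme of its synthesis, stood at 0.148%, 0.294% and 0.20% at 0 h, none well above background, at 3.69%, 2.91% and 17.5% at 48 h and at 4.18%, 4.45% and 6.59% at 72 h. It was at least 9.49-fold higher at 48 h and at least 8.23-fold higher at 72 h than at 0 h. NCED5 passed the filter only through the later times, where it was high, so its passing says nothing more about a difference from 0 h. The test is of the signals as read, whose 0 h level was not measured. Their log2 differences were 4.80 and 4.60 (limma adjusted p of 0.00075 and 0.00066). The other synthesis genes of the list were not called higher. NCED9, well above background on every array, was lower at 72 h (log2 difference -2.06 ± 0.45 (SE), limma adjusted p of 0.0071). It was not called at 48 h (0.124), and NCED3, ABA1, ABA2 and AAO3 were called at neither time. NCED6 was well above background on no array. AHG1, a gene of a phosphatase that acts on abscisic acid signalling in seeds, was also below background at 0 h. It stood at 0.558%, 0.310% and 0.499% there, at 5.87%, 28.1% and 10.1% at 48 h and at 2.24%, 9.99% and 20.1% at 72 h. That was at least 19.5-fold and 12.6-fold higher than at 0 h. AHG1 likewise passed the filter only through the later times. The log2 differences of its signals as read were 4.75 and 4.12 (limma adjusted p of 0.0029 and 0.0046). HAI1, a related phosphatase gene, rose by 1.84 ± 0.27 (SE) and 1.25 ± 0.27 (SE) (adjusted p of 0.0014 and 0.0073). Among further genes of such phosphatases, ABI2 and HAB2 were called higher at both times. AHG3 was lower at 72 h (log2 difference -0.90 ± 0.15 (SE), limma adjusted p of 0.0023). Other settings are not given for NCED9, ABI2, HAB2 and AHG3. CYP707A3, a gene of an abscisic acid hydroxylase that breaks the hormone down, stood at 1437%, 1598% and 1618% at 0 h, at 112%, 114% and 141% at 48 h and at 89.1%, 114% and 113% at 72 h. It fell, with log2 differences of -3.67 ± 0.15 (SE) and -3.89 ± 0.15 (SE) (adjusted p of 1.42e-05 and 8.57e-06). CYP707A1 and CYP707A4 of the same list were not called at either time. CYP707A2, the hydroxylase gene of imbibed seeds, was lower at 72 h (log2 difference -2.21, adjusted p of 0.0012). At 48 h its log2 difference was -1.09 ± 0.33 (SE) (adjusted p of 0.0374), which was lost with the replicate number as a block (adjusted p of 0.0501). It was lost too without replicate 2 or 3 of 0 h, any replicate of 48 h or replicate 2 of 72 h, at an adjusted p of 0.0517 to 0.121.

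**Figure D4:**
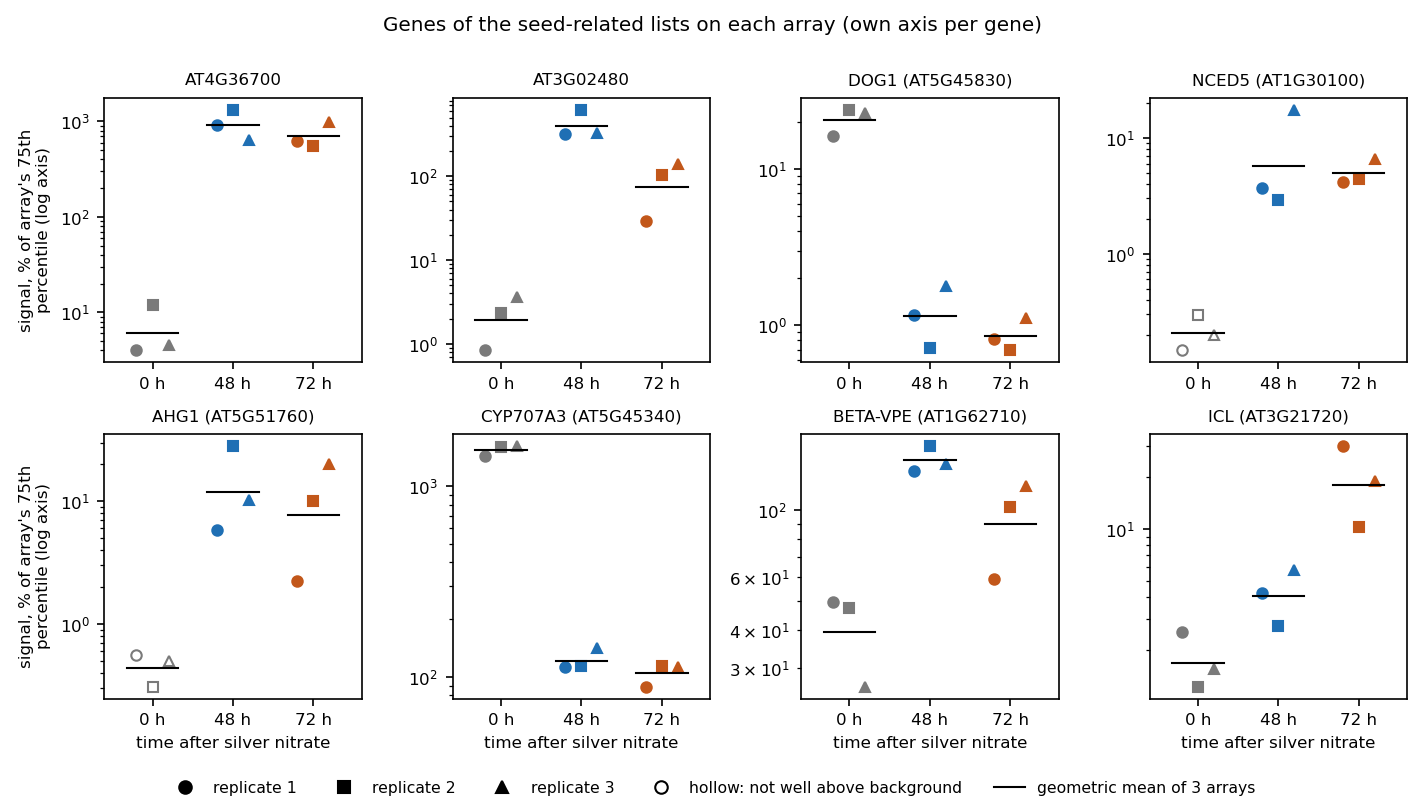
Signal of 8 genes of the related lists on each array, in percent of the array's 75th percentile on a log axis of its own for each gene, against time. Shapes are replicates, hollow points are not well above background and bars are geometric means of 3 arrays. AT4G36700, AT3G02480, NCED5, AHG1 and BETA-VPE lie higher at both later times, DOG1 and CYP707A3 lie lower, and ICL is highest at 72 h.

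Storage proteins are cut to their mature form in the vacuole by vacuolar processing enzymes and reach it through sorting receptors. Of 16 genes of this list 15 were tested, of which 3 were higher at 48 h, and 3 were higher and 1 lower at 72 h. BETA-VPE, the processing enzyme gene of seeds, stood at 49.5%, 47.6% and 26.1% at 0 h, at 135%, 162% and 142% at 48 h and at 59.0%, 102% and 120.3% at 72 h. It rose by 1.89 ± 0.32 (SE) and 1.19 ± 0.32 (SE) on the log2 scale (adjusted p of 0.0026 and 0.0183), and the call at 72 h was lost without replicate 2 or 3 of 72 h at an adjusted p of 0.0611 to 0.0691. The receptor genes VSR1 and VSR4 were higher by 0.50 ± 0.13 (SE) and 0.41 ± 0.12 (SE) at 48 h, and by 0.65 ± 0.13 (SE) and 0.42 ± 0.12 (SE) at 72 h. Their adjusted p was 0.0214 and 0.0337 at 48 h, and 0.0051 and 0.0253 at 72 h. The VSR1 call at 48 h ended without replicate 2 or 3 of 0 h or of 48 h (0.0501 to 0.0792), and that of VSR4 without those or replicate 2 or 3 of 72 h (0.0534 to 0.113). The VSR4 call at 72 h ended without replicate 2 or 3 of 0 h or any replicate of 72 h (0.0546 to 0.0887). TIP3;1, the aquaporin gene of protein storage vacuoles, was lower at 72 h (log2 difference -1.12, adjusted p of 0.0223). That call ended without replicate 3 of 0 h or replicate 1 or 3 of 72 h, at an adjusted p of 0.0639 to 0.0719. At 48 h, with the replicate number as a block, TIP3;1 was called lower (adjusted p of 0.0318), against 0.0655 without it, and leaving out replicate 3 of 48 h, median scaling, slide as a term and leaving out slides 3 and 4 also called it (adjusted p of 0.0138 to 0.0482).

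Of 10 genes of oil synthesis 9 were tested and 1 was called, at both times. This gene, AT3G44830, a locus with no RefSeq symbol, stood at 0.362%, 1.73% and 4.97% at 0 h, at 13.1%, 7.27% and 11.8% at 48 h and at 11%, 6.42% and 30.9% at 72 h. It was higher by 2.83 ± 0.90 (SE) and 3.15 ± 0.90 (SE) (limma adjusted p of 0.0441 and 0.0249). Replicate 1 of 0 h lay under the dimmest level well above background on that array (0.546%). AT3G44830 thus passed the filter only through the later times, where it was high. The 48 h call ended without replicate 1 or 2 of 0 h, any replicate of 48 h or replicate 1 or 2 of 72 h (0.050 to 0.113). The 72 h call ended without replicate 2 of 0 h or replicate 1 or 3 of 72 h (0.0519 to 0.0881). FAE1, the seed-specific elongase gene of very long fatty acids, was well above background on no array.

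Oil breakdown, the pathway by which a germinating seedling draws on its oil reserve, was read with 7 genes. Of 7 genes, all tested, 1 was higher at 48 h and 6 were higher at 72 h, and none was lower at either time. The share called higher among all tested genes was 14.2% at 48 h and 16.9% at 72 h. With any 1 library left out, 5 to 6 were higher at 72 h, and without slides 3 and 4 this count was 3. In the deposited value table, whose median gene lay higher at both times, 5 were called higher at 48 h and 7 at 72 h. ICL, the isocitrate lyase of the glyoxylate cycle, stood at 2.51%, 1.22% and 1.53% at 0 h, at 4.24%, 2.75% and 5.81% at 48 h and at 30.0%, 10.2% and 19.0% at 72 h, and rose by 3.42 ± 0.44 (SE) on the log2 scale at 72 h (adjusted p of 0.00057). At 48 h it was not called (adjusted p of 0.058), but was with the replicate number as a block (adjusted p of 0.0104) and without replicate 1 of 0 h or replicate 1 or 2 of 72 h (0.0345 to 0.0406), and with slide as a term (0.0224) or in the deposited value table (0.0411). MLS, malate synthase of the same cycle, stood at 23.3%, 19.0% and 18.0% at 0 h, at 13.9%, 11.4% and 23.7% at 48 h and at 52.3%, 48.6% and 48.5% at 72 h. It rose by 1.31 ± 0.25 (SE) at 72 h (adjusted p of 0.0040) and was not called at 48 h, where leaving out replicate 3 of 48 h called it lower (adjusted p of 0.0246). PCK1, the first enzyme of sugar synthesis from oil, rose by 0.81 ± 0.19 (SE) at 48 h and 1.06 ± 0.19 (SE) at 72 h (adjusted p of 0.0116 and 0.0026). The lipase gene SDP1L rose by 1.27 ± 0.31 (SE) at 72 h (adjusted p of 0.0125), and at 48 h was called without replicate 1 of 0 h (adjusted p of 0.00641), with quantile scaling and in the deposited value table (0.0423 to 0.0454). ICL, MLS, PCK1 and SDP1L had their highest mean at 72 h, while SESA1, SESA2 and SESA5 were highest at 48 h. The former were named for their change at 72 h and the latter chosen with values known, so nothing is read from this. PCK1 and SDP1L differed between 72 h and 48 h by only 0.25 and 0.35 on the log2 scale. No gene of this list was called between 72 h and 48 h.

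Some calls named above also ended under a setting other than a left-out library. Background correction by normexp with an offset of 50 ended those of HSD1, OLEO4, AT2G47780, AT3G17520, AT3G53040 and AHG1 at 48 h, of GRP19, EEL, AT3G53040, AHG1 and SDP1L at 72 h, and of NCED5 and AT3G44830 at both times (adjusted p of 0.0674 to 0.879). With slide as a fixed term in the fit the calls of AT2G18540, OLEO3, GRP19, CLF, BETA-VPE, VSR4, AT3G44830 and SDP1L at 72 h and of VSR4 at 48 h ended (adjusted p of 0.053 to 0.0961). Without slides 3 and 4 those of RD20 at both times, NF-YB6 and AHG1 at 72 h, and ECP63 and PCK1 at 48 h ended, among others, at an adjusted p of 0.0553 to 0.144. Median scaling ended the calls of VSR1 and AT2G47780 at 48 h and of VSR4 at both times (0.0539 to 0.138). Quantile scaling ended those of AT2G47780 at 48 h and of AT2G18540 and TIP3;1 at 72 h (0.0592 to 0.0879), and the value table that of AT2G18540 (0.0649). Without the filter on dim probes those of AT2G47780, CYP707A2 and AT3G44830 at 48 h and of GRP19 at 72 h ended (0.0512 to 0.0686).

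Markers of the organs in which storage genes are known were read beside the albumins. In bulk tissue, fewer cells of a type and less RNA per cell cannot be told apart. Of 10 seed coat markers 7 were tested and none was called, and their summed signal was 1600% to 1970% at 48 h and 1780% to 1893% at 72 h, against 1630% to 1816% at 0 h. BAN at 48 h was called higher without replicate 3 of 48 h, without slides 3 and 4 and in the deposited value table (0.0154 to 0.0452), and at 72 h without slides 3 and 4 (0.0403). MUM2 at 72 h was called higher without replicate 1 of 0 h (0.038), and AHA10 in the value table at both times and with quantile scaling at 72 h (0.0235 to 0.0407). Of 7 endosperm markers, ZOU, ALE1, FIS2 and PHE1 were well above background on no array and FWA on 1 array of 72 h. MEA, a Polycomb gene imprinted in the endosperm, was below background at 0 h. It stood at 3.61%, 3.25% and 8.16% at 48 h and at 10.2%, 4.23% and 12.0% at 72 h. That was at least 7.57-fold and 13.3-fold higher than at 0 h. MEA passed the filter only through the later times, where it was high. The log2 differences of its signals as read were 3.33 and 4.14 (limma adjusted p of 0.00097 and 0.00026, with 0.223 at 48 h under normexp). AGL62 was not called. The summed signal of the endosperm list was 6.21% to 11.9% at 48 h and 6.92% to 15.1% at 72 h, against 3.15% to 3.93% at 0 h. MEA alone made up most of each later sum (at 48 h 3.61% of 6.48%, 3.25% of 6.21% and 8.16% of 11.9%), so the higher sums do not describe the list as a whole.

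Flower markers were present in material labelled as seedlings. Of 11 genes 10 were tested. At 48 h AP3 and SEP2 were called higher and AG lower, and at 72 h SEP2 was called higher and AG, SEP3 and SHP1 lower. Under normexp SEP2 was not called and its log2 difference turned to -0.21 at 48 h and -0.48 at 72 h. SEP3, a floral organ identity gene, stood at 163%, 232% and 233% at 0 h, at 85.5%, 179% and 73.4% at 48 h and at 28.4%, 50.4% and 53.3% at 72 h. Its log2 difference at 72 h was -2.28 ± 0.37 (SE) (adjusted p of 0.0017). The calls of AP3 and AG at 48 h were lost with the replicate number as a block (adjusted p of 0.0678 and 0.0735), and SEP3 and SHP1 were then called lower (adjusted p of 0.0365 and 0.0313). AP3 was also lost without replicate 1 or 3 of 0 h, 2 or 3 of 48 h, or 1 or 3 of 72 h, and AG without any replicate of 0 h, 1 or 3 of 48 h, or 2 or 3 of 72 h (adjusted p of 0.0506 to 0.145). SHP1 was lost at 72 h without replicate 2 or 3 of 0 h (0.0589 to 0.0964). Leaving out replicate 2 of 48 h called SEP3 at 48 h (0.0159), and leaving out replicate 1 or 2 of 72 h called SHP1 at 48 h (0.00269 to 0.0376), as did median or quantile scaling, normexp, slide as a term and a stricter filter (0.0275 to 0.0469). The summed signal of the flower list was 126% to 223% at 48 h and 79.9% to 113% at 72 h, against 219% to 321% at 0 h. SEP3 made up most of the sum on each array of 0 h (163% of 219%, 232% of 321% and 233% of 310%). The lower sum is thus largely that of SEP3 and does not describe the list as a whole, in which SEP2 was called higher at both times. On no array was LFY well above background. Of the anther and pollen markers, AT5G07230 and MS2 were well above background on no array and VGD1 on 1 array of 72 h.

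Shoot and root markers were all well above background at every time. The 5 shoot markers summed to 16130% to 19375% at 48 h and 15959% to 18959% at 72 h, against 33212% to 37240% at 0 h. Of these, 3 were called lower at 48 h (RCA, PSBO1 and CA1) and all 5 at 72 h, with CA1, a chloroplast carbonic anhydrase gene, at log2 differences of -5.0 and -5.45 (adjusted p of 8.55e-05 and 4.44e-05). The RBCS1A call at 72 h ended without replicate 2 or 3 of 0 h or of 72 h (0.0584 to 0.0751), in the deposited value table (0.1534) and with quantile scaling (0.8804). At 48 h RBCS1A was called with the replicate number as a block (adjusted p of 0.0493), with slide as a term, under normexp and without replicate 1 of 0 h (0.0297 to 0.0457), and LHCB2.1 without replicate 3 of 0 h or 2 of 48 h and with median or quantile scaling (0.0169 to 0.0495). Of 6 root markers, COBL9, a root hair gene, was lower at both times, with log2 differences of -4.13 and -5.70 (adjusted p of 0.00039 and 7.46e-05). CASP1 was called lower and SHR higher at 72 h, and PYK10, SCR and WER were not called. The CASP1 call ended without replicate 1 or 3 of 0 h, 1 or 3 of 48 h, or 2 or 3 of 72 h (0.0599 to 0.152), and that of SHR without replicate 1 or 2 of 72 h (0.0539 to 0.0553). With slide as a fixed term the calls of AP3 and AG at 48 h and of SEP2, RBCS1A and CASP1 at 72 h also ended (adjusted p of 0.061 to 0.096). The value table also ended those of AG and CASP1 (0.0864 to 0.0889), median scaling that of AP3 (0.0537), and leaving out the filter those of AP3, AG and CASP1 (the lowest adjusted p being 0.0554). The part of these shifts in the levels of the albumin genes was not tested.

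**Figure D5:**
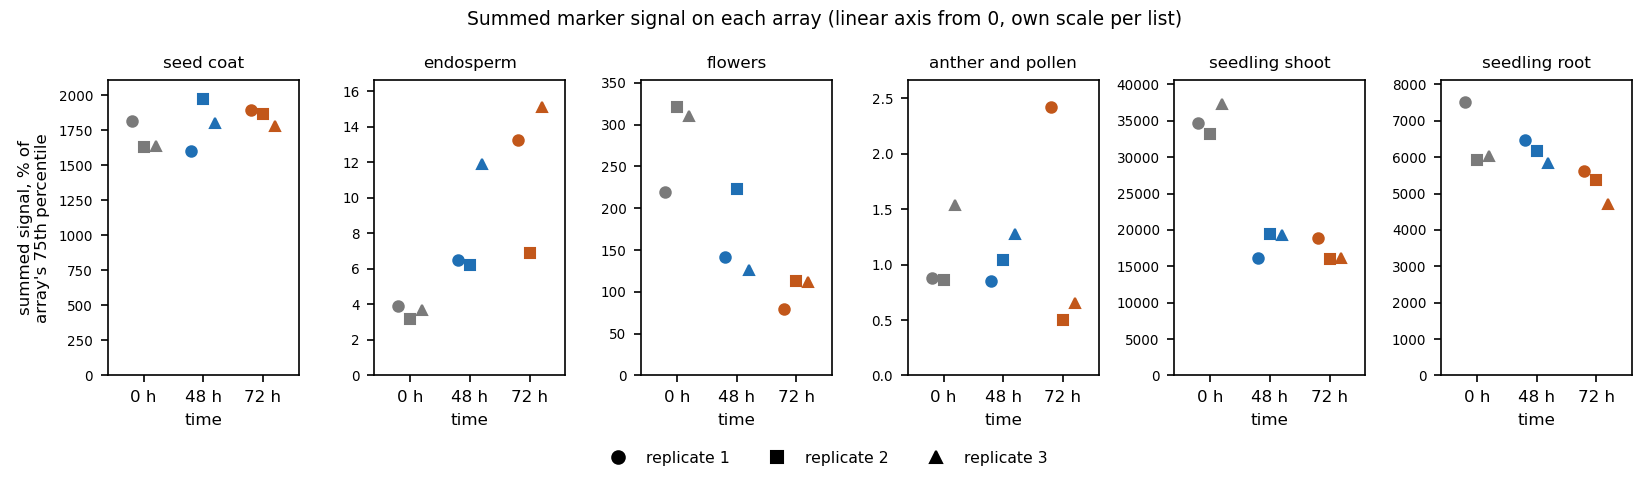
Summed signal of 6 marker lists on each array, in percent of the array's 75th percentile on linear axes that start at 0, with a scale of its own for each list. Shapes are replicates. Shoot markers are lower at 48 h and 72 h (15959% to 19375%) than at 0 h (33212% to 37240%). The flower sum, which is mostly SEP3 at 0 h, is lowest at 72 h, and the anther and pollen list stays at or under 2.42%.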

How the data were processed

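Total RNA of 9 samples (0 h, 48 h and 72 h, 3 each) was labelled with Cy3, 500 ng each per the labels' protocols, and read on 1-colour Agilent arrays. The deposited scanner files give an intensity per spot, the background-subtracted processed signal, made with Agilent Feature Extraction 9.5.3.1 per the submitters' processing notes. The deposited value table holds a ratio per probe around 1, and its scaling and reference level are not given in the sources used here: column medians ran from 0.901 to 1.11. It served as an alternative.

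Control and outlier spots were left out, spots of a probe averaged, and log2 values taken minus each array's 75th percentile. Of 37478 probes, 26236 matched a locus, and the brightest probe stood for each of 541 loci with several. Times were compared with limma 3.58.1 in R 4.3.3, with 1 mean per time over 9 arrays and Benjamini-Hochberg adjustment over 21042 genes. The residual degrees of freedom were 6 and the median SE was 0.194. The fit was tested on simulated data. No spot was saturated.

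The members and the gene lists were chosen with earlier results of these data known. Of each list, up to 4 called genes with the largest change at each time are named, with all transcription factors, all markers that moved and the 10 genes most alike; other names were added for their role. Deviations of same-numbered arrays correlated at 0.255, 0.317 and 0.401 between 48 h and 0 h, all above 0.1, so the numbers were taken to pair those samples. Each such pair also shares a slide, so pairing by number and by slide cannot be told apart. The main fit left the pairing out, and the replicate block was an alternative. Alternatives were median and quantile scaling, normexp (on median signals, chosen after seeing the data, since mean signals were not in the columns used), the value table, the mean of probes, other filters, replicate and slide blocks, each library left out, and slides 3 and 4 left out (added after seeing the data). Probe, promoter and protein sequences were not used here.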

Additional observations from a re-analysis of the deposited data

Results flagged for a closer look

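ASIL1 (AT1G54060), a repressor of seed genes, differed in direction between the times. It stood at 241%, 236% and 241% at 0 h, at 218%, 228% and 202% at 48 h and at 256%, 248% and 254% at 72 h. Against the same-numbered array of 0 h all 3 arrays were lower at 48 h (log2 difference -0.15) and all 3 were higher at 72 h (0.08). Neither difference was called by limma (adjusted p of 0.329 and 0.598). The difference between 72 h and 48 h was 0.23 on the log2 scale, with an adjusted p of 0.579.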

How the results depend on the processing

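Genes called at 48 h and 72 h against 0 h were 6309 and 7627, and 4655 to 6976 and 5630 to 8485 with 1 library left out. Without slides 3 and 4 they were 3037 and 4399, with fewer samples. The value table called 3849 higher and 2613 lower at 48 h and 5708 higher and 3047 lower at 72 h, against 2986 and 3323, and 3548 and 4079, and its median gene lay 0.15 and 0.23 higher on the log2 scale. Between 72 h and 48 h, where 0 were called, median scaling called 2, quantile scaling 3, normexp 1, the deposited values 1, the replicate block 6 and single left-out libraries 0 to 7. Of the seed-related genes, 29 were called at 48 h and 34 at 72 h. Normexp called 18 at 48 h, 72 h without slides 3 and 4 gave 19, and left-out libraries gave 20 to 33 and 27 to 40. The cause was not tested.

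The median over the 10 members (0.11 at 48 h, -0.43 at 72 h) was -0.68 at 48 h under normexp. At 72 h it was -0.011 with quantile scaling, -0.92 with normexp, -0.20 in the value table, -0.23 with slide as a fixed term and -0.064 without slides 3 and 4. Left-out libraries gave -0.15 to 0.15 at 48 h, -0.43 to -0.25 at 72 h and -0.67 to -0.29 between 72 h and 48 h. Normexp reversed SESA1 at 72 h (-0.56), SDP1L at 72 h (-0.051) and SEP2 at 48 h (-0.21) and 72 h (-0.48). Over single genes and all alternatives, 2497 values stayed the same, 173 lost a call, 63 gained one, 8 moved and 4 reversed. For tested list and marker genes, the same means the same side of the threshold. For SESA1, SESA2 and SESA5, which have no test here, it means a shift smaller than the SD of the same-numbered differences, and a larger shift counts as moved.

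With the replicate number as a block, 6743 and 8152 genes were called at 48 h and 72 h, and 34 and 36 of the seed-related genes. At 72 h the block ended the call of GRP19 (adjusted p of 0.064) and called AT2G47780 (0.0432). Beyond these and the 48 h calls named in the text, it changed no call among named genes whose other settings are given. Same-numbered arrays deviated together less at 72 h, with correlations of 0.209, -0.01 and 0.116 against 0 h, and 0.098, 0.112 and -0.039 against 48 h, so there the numbers were not taken to pair the samples, although replicates 1 and 2 of all times also share a slide. Signal over background limits the cruciferins, the oleosins, SESA3 and SESA4 to bounds at most arrays.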
